A study of Mus musculus with 10 samples.

Results

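hnRNP and SR genes encode the proteins that coat new transcripts and steer their splicing, and 36 of them were examined here for peaks of 2 tagged SOX factors in mouse embryonic stem cells. The members were the protein-coding genes of the RefSeq table whose symbols start with Hnrnp (21 genes) or Srsf (11 genes), plus Ncl, Npm1, Tra2a and Tra2b, out of 21627 protein-coding genes. A peak was counted for a gene when its summit lay inside the gene or within 2 kb of it. The genes were selected as a set on the peaks themselves, that is on which of them had SOX15 or SOX2 summits in these lists and where. Each member was then taken by its symbol, with or without a peak. The calls are therefore a description and were not tested.

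The data are ChIP-seq peak lists, in which formaldehyde-fixed chromatin was pulled down and the DNA sequenced. The cells were mouse embryonic stem cells in 2i/LIF medium, with a knock-in of an HA tag on SOX2 or on SOX15. The labels name no parental line, clone or strain for these cells. The 10 samples were 2 SOX2-HA and 3 SOX15-HA ChIP libraries and 5 inputs without antibody (2 for SOX2 and 3 for SOX15), and the inputs were not analysed here.

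The SOX2 lists held 2676 and 4817 peaks in replicates 1 and 2, and the SOX15 lists 217, 672 and 437 in replicates 1, 2 and 3. Read counts are not part of a peak list, so depth is unknown, and a gene without a peak may lie under the threshold of the peak caller. The fold enrichment is the authors' own value per peak, a linear ratio over background that is comparable within a list only, so folds of different libraries are printed side by side and not averaged. Peak lists do not measure RNA. Of 7 stem cell marker genes, 5 had SOX2 peaks in both libraries by the same distance rule (Pou5f1, Nanog, Sox2, Esrrb and Tfcp2l1), beside 4.97% of all genes. Zfp42 had a SOX2 peak in replicate 1 alone, and Klf4 had no SOX2 peak. Nothing in the labels ties the replicates to different cultures or clones, so their spread may be only technical.

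Heterogeneous nuclear ribonucleoproteins (hnRNPs) bind pre-mRNA along its length and often repress the use of splice sites. SR proteins carry an RNA recognition motif and a domain rich in arginine and serine, and bind exonic enhancers that promote splicing. Many genes of both kinds are strongly transcribed in dividing cells and limit their own output through alternative exons that trigger decay of the mRNA. Nucleolin (Ncl) and nucleophosmin (Npm1) are abundant nucleolar proteins of ribosome assembly.

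Promoters of 6 genes are shown first, because the members with the most SOX15 libraries are compared below by where the peaks lie, at the start of the gene or past its end. Hnrnpu and Ncl had SOX15 peaks in all 3 libraries, Srsf2 and Srsf7 in 2, and Hnrnpk and Srsf3 had no peak in the 5 libraries. Each line gives the 250 bases before the transcription start, from 5′ to 3′ in the gene's direction, from RefSeq on GRCm38.p6, whose coordinates are those of mm10. Capitals mark matches to the words searched on both strands, starting with the SOX words ACAAAG, followed by ACAATG, followed by ACAATA. Further words were the octamer word ATGCAAAT, the CCAAT box, the TATA box word TATAAA, the GC box word GGGCGG, the ETS factor word CCGGAAG and the E-box word CACGTG. Neighbouring GGGCGG matches share 1 base in Hnrnpu and 2 bases in Srsf2.
Hnrnpu, chr1:178337816-178338065, minus strand: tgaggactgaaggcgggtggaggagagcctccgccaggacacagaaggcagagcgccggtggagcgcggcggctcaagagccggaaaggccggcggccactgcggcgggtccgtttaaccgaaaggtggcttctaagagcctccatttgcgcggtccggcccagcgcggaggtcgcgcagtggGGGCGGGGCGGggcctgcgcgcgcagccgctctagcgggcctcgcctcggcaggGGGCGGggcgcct
Ncl, chr1:86359456-86359705, minus strand: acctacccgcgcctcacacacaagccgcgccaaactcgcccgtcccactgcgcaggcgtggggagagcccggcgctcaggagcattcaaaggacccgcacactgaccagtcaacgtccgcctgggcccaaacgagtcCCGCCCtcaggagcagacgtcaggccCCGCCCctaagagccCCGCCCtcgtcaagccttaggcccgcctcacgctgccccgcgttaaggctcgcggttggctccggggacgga
Srsf2, chr11:116853095-116853344, minus strand: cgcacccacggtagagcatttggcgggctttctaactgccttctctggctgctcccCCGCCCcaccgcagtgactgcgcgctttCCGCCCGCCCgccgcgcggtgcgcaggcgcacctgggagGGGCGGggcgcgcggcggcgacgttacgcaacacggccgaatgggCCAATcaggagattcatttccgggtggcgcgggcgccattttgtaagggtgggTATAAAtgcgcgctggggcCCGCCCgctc
Srsf7, chr17:80207306-80207555, minus strand: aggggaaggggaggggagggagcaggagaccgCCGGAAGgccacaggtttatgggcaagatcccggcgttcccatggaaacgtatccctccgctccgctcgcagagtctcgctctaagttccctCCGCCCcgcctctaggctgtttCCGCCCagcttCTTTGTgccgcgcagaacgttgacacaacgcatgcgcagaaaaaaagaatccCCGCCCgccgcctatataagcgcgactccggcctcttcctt
Hnrnpk, chr13:58402118-58402367, minus strand: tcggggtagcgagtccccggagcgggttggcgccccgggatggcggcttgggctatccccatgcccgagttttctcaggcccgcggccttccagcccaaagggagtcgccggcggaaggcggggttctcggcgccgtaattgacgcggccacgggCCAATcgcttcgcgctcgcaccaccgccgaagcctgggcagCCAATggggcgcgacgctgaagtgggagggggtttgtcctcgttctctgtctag
Srsf3, chr17:29032410-29032659, plus strand: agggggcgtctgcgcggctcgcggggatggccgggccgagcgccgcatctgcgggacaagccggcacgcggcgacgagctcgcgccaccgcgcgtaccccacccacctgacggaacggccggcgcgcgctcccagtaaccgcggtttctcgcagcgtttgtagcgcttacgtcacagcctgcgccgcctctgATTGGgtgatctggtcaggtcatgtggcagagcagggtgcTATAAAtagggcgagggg

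These promoters were rich in G and C, and 1 of the 6, that of Srsf7, held a SOX word. GC content was 73.6% in Hnrnpu, 69.6% in Ncl, Srsf2 and Srsf3, 69.2% in Hnrnpk and 61.6% in Srsf7. Over the 45 member windows of 33 genes with a listed start the median was 68%, against 55.6% over 21044 windows of all protein-coding genes. A GGGCGG word was in 36 member windows (80%), against 43.0% of all windows. A CCAAT word was in 22 (48.9%), against 35.6%, and CCGGAAG in 9 (20%), against 9.07%. TATAAA was in 4 (8.89%), against 11.7%, and CACGTG in 3 (6.67%), against 6.70%. At least 1 of the SOX words was in 8 member windows (17.8%), against 26.9% of all windows, and ATGCAAAT was in 0, against 1.59%. Windows of 1 gene can overlap each other. Of the 6 members with SOX15 peaks in at least 2 libraries, Srsf7 had a SOX word in its window, ACAAAG on the minus strand, at -93 bp from the start. A word match is not evidence of binding, and its absence says only that these letters are not in the window.

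SOX15 peaks were at 9 of the 36 genes in at least 1 library and at 6 in at least 2 of the 3 libraries. The 6 were Hnrnpu, Ncl, Hnrnpa3, Hnrnpa1, Srsf2 and Srsf7. Of all protein-coding genes 0.874% had SOX15 peaks in at least 2 libraries and 2.85% in any, beside 16.7% (Wilson 95% interval 7.87 to 31.9, counting error only) and 25% (13.8 to 41.1) of the members. In all 3 libraries there were 2 members, Hnrnpu and Ncl (5.56%), beside 0.504% of all genes. Replicate 2 carried several of these calls. Without it 2 members had peaks in both other SOX15 libraries (all genes 0.583%), and there were 4 without replicate 1 (all genes 0.698%) and 4 without replicate 3 (all genes 0.601%). With each list cut to its 217 strongest peaks, the length of the shortest, 0 members had SOX15 peaks in at least 2 libraries, beside 0.555% of all genes. SOX15 replicate 1 had a peak at 4 members (11.1%, all genes 0.754%), replicate 2 at 7 (19.4%, all genes 2.09%) and replicate 3 at 6 (16.7%, all genes 1.39%).

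SOX2 peaks were at 4 members in both libraries, Hnrnpu, Ncl, Hnrnpr and Hnrnpd (11.1%, interval 4.41 to 25.3), beside 4.97% of all protein-coding genes. This interval also covers counting error only. The set was selected on these peaks, so the intervals are no test against the shares of all genes. SOX2 replicate 1 had a peak at 7 members (19.4%, all genes 5.61%), which added Hnrnpa3, Hnrnph1 and Srsf7. SOX2 replicate 2 had a peak at 4 (11.1%, all genes 8.79%), although its list was the longer. Peaks of any SOX2 library were thus at 7 members, beside 9.44% of all genes. With lists of equal length 0 members had SOX2 peaks in both libraries, beside 0.338% of all genes, and 0 had both factors. Hnrnpu and Ncl had SOX15 peaks in at least 2 libraries and SOX2 peaks in both (5.56%, all genes 0.365%). In all, 12 of the 36 members had a peak in some library (33.3%, all genes 11%). The median gene length was 11929 bp over the members and 17330 bp over all protein-coding genes. It was 8797 bp over the 6 members with SOX15 in at least 2 libraries and 20490 bp over the 4 with SOX2 in both, and the part of length in the calls was not tested.

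**Figure D1:**
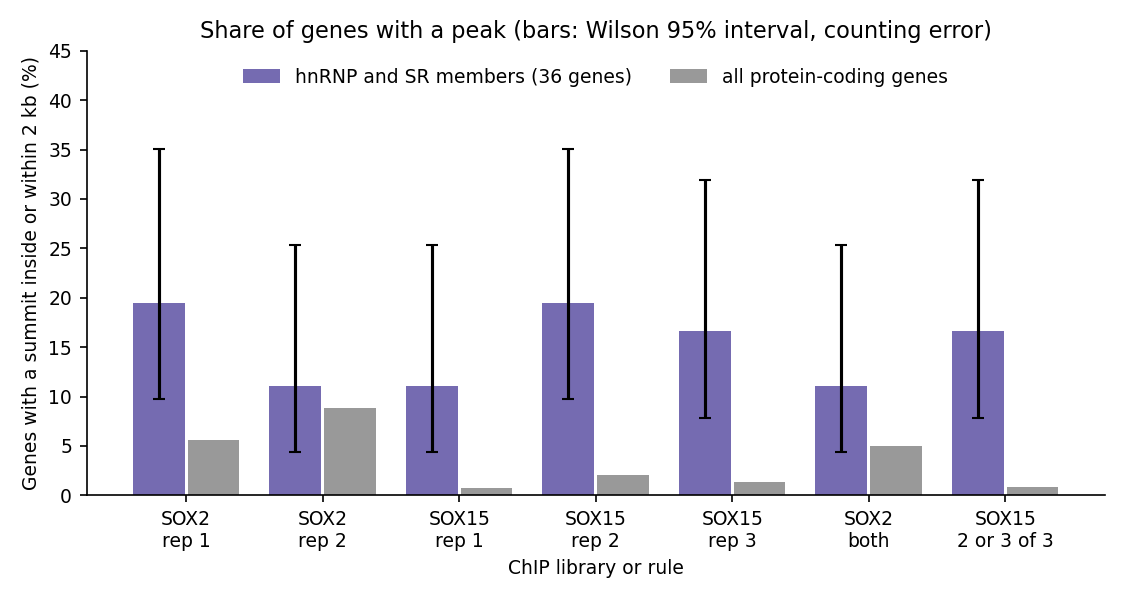
Share of genes with a summit inside or within 2 kb, in percent, for each ChIP library and for the rules of both SOX2 and at least 2 of 3 SOX15 libraries. Purple bars are the 36 members with Wilson 95% intervals and grey bars all 21627 protein-coding genes; the member bar is 16.7% and the grey bar 0.874% for at least 2 of 3 SOX15 libraries.

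The SOX15 peaks lay mainly past the 3′ ends of these genes. Of the 25 SOX15 summits at members, 20 (80%) were downstream of the annotated end, 4 within 1 kb of a transcription start and 1 inside a gene. The 20 lay 156 to 1988 bp past the end (median 1414 bp), and 15 of them were beyond 1 kb. They came from 7 genes, 5 of them from Ncl, and summits of 1 site in several libraries count more than once. Of the 20, 8 lay inside another protein-coding gene and 7 were nearer to an end of another gene than to that of the member. At other protein-coding genes without the clustered histone genes, 169 of 707 SOX15 summits (23.9%) were past the end, 119 (16.8%) at a start and 402 (56.9%) inside. SOX2 summits at members were placed otherwise, with 7 of 12 inside (58.3%), 4 at a start and 1 past the end, beside 83.6%, 8.24% and 3.88% at other genes. A SOX15 summit past the end in at least 2 libraries was found at 5 of the 33 members with a listed strand (15.2%, all such genes 0.284%), and in any library at 7 (21.2%, all such genes 0.706%). SOX2 had 0 of 33 past the end in both libraries (interval up to 10.4%, all such genes 0.237%) and 1 in any (all such genes 0.538%). Windows of 1 kb leave 2 of the 6 reproducible SOX15 genes, Hnrnpu and Srsf7, beside 0.749% of all genes.

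**Figure D2:**
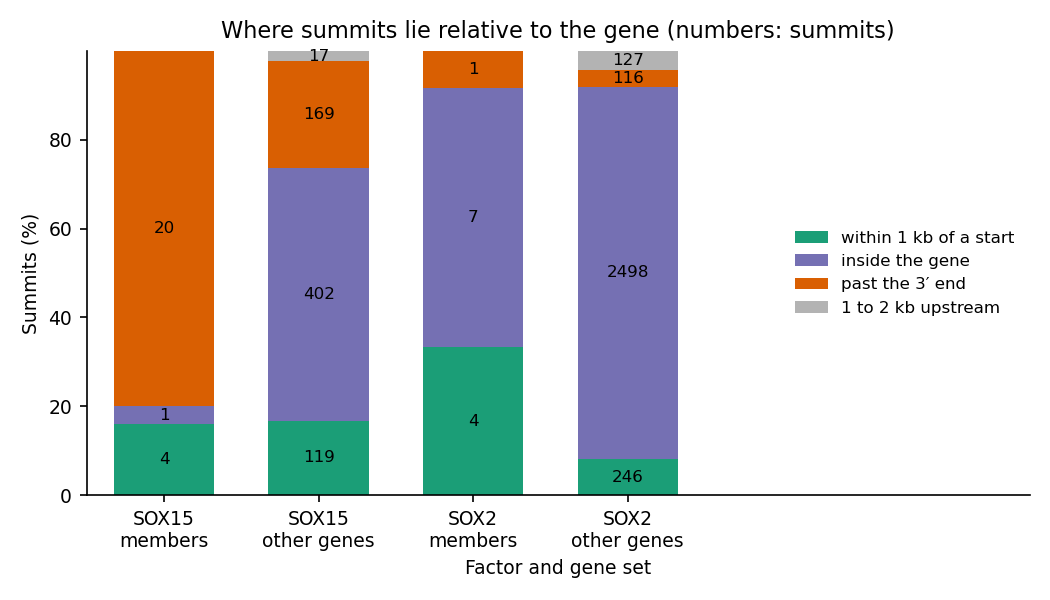
Percent of summits in each position class, for SOX15 and SOX2, at members and at other protein-coding genes without histone genes; the numbers inside the bars count summits. In the first bar 20 of 25 SOX15 member summits are past the 3′ end, and in the third bar 7 of 12 SOX2 member summits are inside the gene.

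Hnrnpu, the gene of a nuclear matrix and RNA-binding protein also known as SAF-A, had SOX15 and SOX2 peaks at opposite ends. The gene spans chromosome 1, 178321108 to 178338891, on the minus strand. Across its 3′ end 1 merged SOX15 region (178320520 to 178321331) was called in all 3 libraries, with folds of 5.49, 6.28 and 4.47 in replicates 1, 2 and 3. The summits were 254 bp past the end in replicate 1, 83 bp before it in replicate 2 and 156 bp past it in replicate 3. This region also lies inside Cox20, a gene of cytochrome oxidase assembly on the opposite strand. The SOX2 summits lay at -452 and -484 bp from the listed transcription start, with folds of 13.5 and 18.9 in replicates 1 and 2. They are upstream of the printed Hnrnpu window, although still inside the annotated gene, which begins farther upstream. SOX2 replicate 1 had a second, weaker peak 451 bp inside the 3′ end, with a fold of 5.73 and a summit 368 bp from the nearest SOX15 summit. The SOX15 and SOX2 intervals at this gene did not overlap.

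Ncl, the nucleolin gene and host of small nucleolar RNAs, had its SOX15 peaks past the 3′ end and its SOX2 site inside the gene. The gene spans chromosome 1, 86344719 to 86359455, on the minus strand. A SOX15 region at 86343010 to 86343455 was called in all 3 libraries, with folds of 5.91, 4.20 and 5.12 and summits 1517, 1567 and 1505 bp past the 3′ end. Replicate 1 had a further peak 1988 bp past the end (fold 5.99) and replicate 3 one 303 bp past it (fold 5.56). The next protein-coding gene on that side, B3gnt7, had its nearer end 35426 to 37111 bp from these summits. The SOX2 summits were 4264 and 4291 bp before the 3′ end, with folds of 7.77 and 5.23 in replicates 1 and 2. The closest SOX15 and SOX2 summits were 4567 bp apart.

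**Figure D3:**
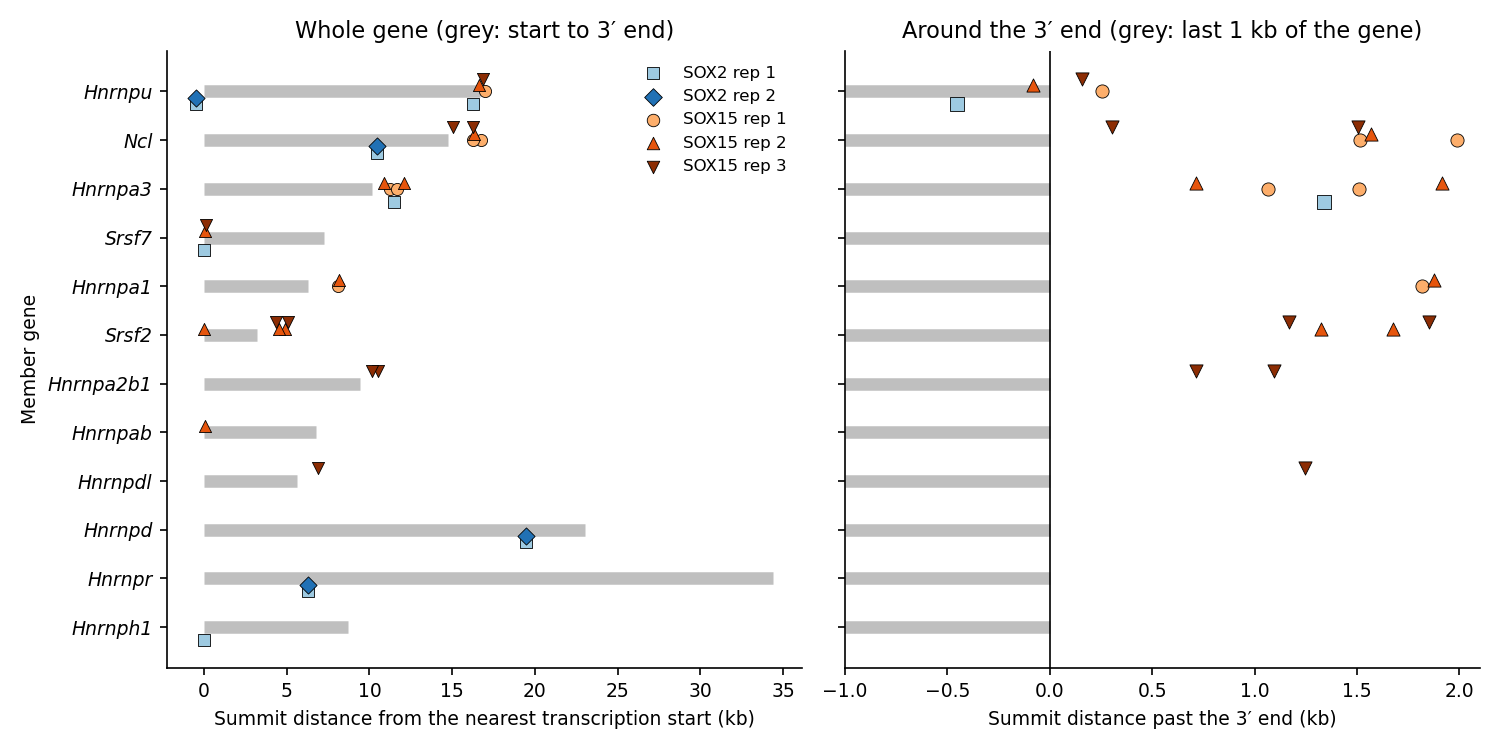
Summits at the 12 members with a peak, by distance in kb from the nearest transcription start (left, grey bars run from start to 3′ end) and by distance past the 3′ end (right); marker shape and colour give the library. SOX15 markers of 7 genes gather right of the 3′ end, from 156 to 1988 bp past it. The SOX2 markers called in both libraries lie inside the annotated genes, with those of Hnrnpu at -452 and -484 bp from its listed start.

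The hnRNP A/B genes Hnrnpa3, Hnrnpa1 and Hnrnpa2b1, whose proteins are abundant nuclear RNA-binding proteins that can repress exons, had SOX15 peaks past the 3′ end. At Hnrnpa3 (chromosome 2, 75659105 to 75669407, plus strand) replicate 1 had 2 peaks, 1068 and 1511 bp past the end, with folds of 6.35 and 7.13. Replicate 2 had 2 as well, 712 and 1915 bp past the end, with folds of 4.80 and 4.90, and replicate 3 had 0. The peaks of replicates 1 and 2 overlapped once and only at their edges, with a merged span of 559 bp. Hnrnpa3 left the reproducible SOX15 genes, which then numbered 5, when the overlap had to cover 50% of the shorter peak (all genes 0.749%). The same happened when peaks needed a −log10 q-value of at least 5 (all genes 0.768%). SOX2 replicate 1 had a peak among them, 1339 bp past the end (fold 4.69), that overlapped 2 SOX15 peaks.

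Hnrnpa1 (chromosome 15, 103239943 to 103246698, plus strand) had 1 SOX15 region. Its folds were 4.67 and 4.16 in replicates 1 and 2, with summits 1816 and 1878 bp past the end and no peak in replicate 3. These summits lie inside Nfe2, a blood transcription factor gene, and nearer to an end of Nfe2 (302 and 364 bp) than to that of Hnrnpa1. Hnrnpa2b1 (chromosome 6, 51460434 to 51470048, minus strand) had peaks in SOX15 replicate 3 alone, 714 and 1095 bp past the end, with folds of 4.97 and 3.55. The second was nearer to Nfe2l3. Hnrnpdl, a relative of Hnrnpd (chromosome 5, 100033577 to 100039936, minus strand), likewise had 1 peak in replicate 3 alone, 1245 bp past the end, with a fold of 4.83.

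Among the SR genes, Srsf2 and Srsf7 had SOX15 peaks at their starts, and Srsf2 also past its end. Srsf2 encodes SC35, a marker of nuclear speckles (chromosome 11, 116849897 to 116853675, minus strand). In replicate 2 a peak had its summit 20 bp after the transcription start, with a fold of 6.07, where the gene overlaps the oppositely directed Mfsd11. Past the 3′ end replicate 2 had folds of 5.63 and 5.65, at 1675 and 1323 bp, and replicate 3 had 4.97 and 8.04, at 1852 and 1170 bp. These 4 peaks merge into 1 region of 1195 bp, which lies inside Mettl23 and nearer to an end of Mettl23 than to that of Srsf2. Replicate 1 and both SOX2 libraries had no peak at Srsf2.

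Srsf7 (chromosome 17, 80200080 to 80207369, minus strand), which encodes the SR protein 9G8 of splicing and mRNA export, was the member with SOX15 peaks at the start in 2 libraries (3.03% of 33 members, all such genes 0.394%). The summits were 47 and 114 bp after the start in replicates 2 and 3, with folds of 5.78 and 8.20, and replicate 1 had no peak. An end of the neighbouring gene Gemin6 lay 246 and 313 bp from these summits, and the nearer end of Srsf7 111 and 178 bp. SOX2 replicate 1 had a peak at the same place, 26 bp after the start, with a fold of 3.75, and it overlapped both SOX15 peaks. Its rank there was 2662 of 2676. Hnrnpab, the gene of an A/B-type hnRNP (chromosome 11, 51600100 to 51606881, minus strand), had a peak in SOX15 replicate 2, 50 bp after the start, with a fold of 5.65. Hnrnpab, Srsf2 and Srsf7 were the 3 members with a SOX15 summit within 1 kb of a start in any library (9.09%, all such genes 0.758%).

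Hnrnpr and Hnrnpd had SOX2 peaks in both libraries and no SOX15 peak. In Hnrnpr, the gene of an hnRNP that binds mRNA in the nucleus and in axons (chromosome 4, 136310942 to 136345981, plus strand), the SOX2 folds were 15.2 and 22.3. Their summits lay 2 bp apart, 6278 and 6280 bp from the nearest start. These were the strongest member peaks in either SOX2 list, ranked 370 of 2676 and 258 of 4817. In Hnrnpd, which encodes the AU-rich element binding protein AUF1 (chromosome 5, 99955935 to 99979130, minus strand), folds were 6.20 and 10.3, with summits 3535 and 3557 bp before the 3′ end. Hnrnph1, whose protein binds runs of G (chromosome 11, 50375257 to 50386528, plus strand), had 1 peak in SOX2 replicate 1, at -18 bp from the nearest of its 5 listed starts, with a fold of 3.88. Within 1 kb of a start SOX2 was called at Hnrnpu in both libraries (all such genes 0.521%), and at Hnrnph1, Hnrnpu and Srsf7 in any (9.09%, all such genes 1.22%).

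**Figure D4:**
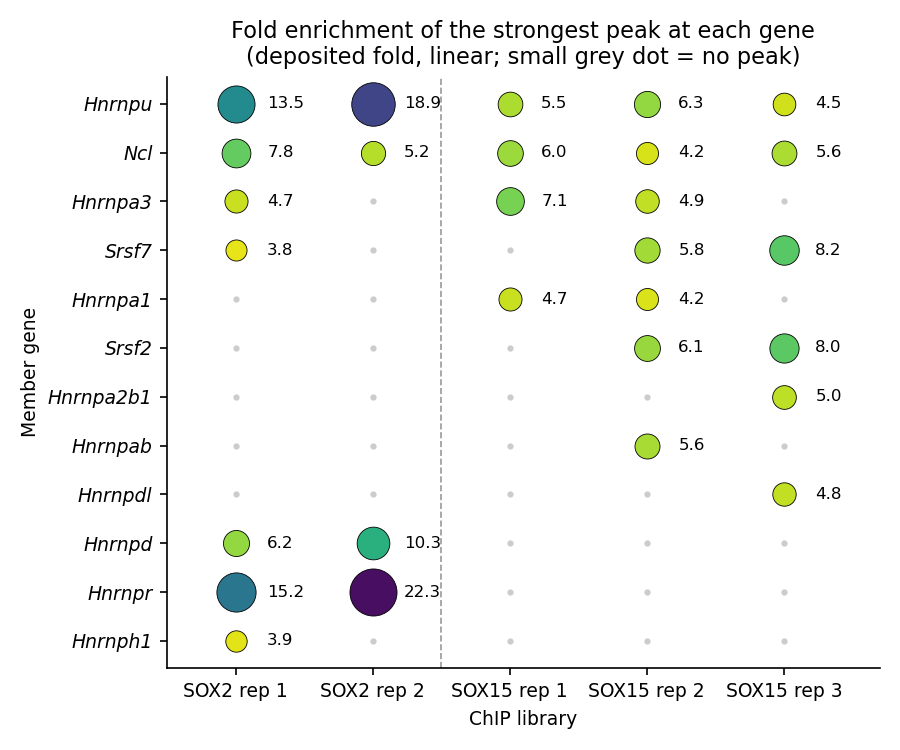
Deposited fold enrichment of the strongest peak at each of the 12 members with a peak, by ChIP library; circle size and colour follow the printed value and small grey dots mark no peak. Hnrnpu and Ncl have a value in all 5 libraries, and within each SOX2 list the highest member value is that of Hnrnpr, 15.2 and 22.3.

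The SOX15 peaks of members did not lie at the top of their lists, whereas some SOX2 peaks of members ranked high. By percentile of fold in the list, the median of each gene's strongest SOX15 peak was 21.9 in replicate 1, 57.3 in replicate 2 and 22.9 in replicate 3. By −log10 q-value it was 22.8, 16.1 and 46.0, so the order of replicates 2 and 3 turns with the measure. The highest SOX15 fold at a member was 7.13 in replicate 1 (Hnrnpa3), 6.28 in replicate 2 (Hnrnpu) and 8.20 in replicate 3 (Srsf7), against list medians of 8.34, 5.32 and 6.41. No member peak was among the 25 strongest peaks of its list in the 5 libraries. The SOX2 lists of 2676 and 4817 peaks held 8 and 4 member summits. The SOX15 lists of 217, 672 and 437 peaks held 6, 10 and 9. With so few member summits, this absence is not read as a result about the members. In SOX2 replicate 1 the median percentile by fold was 18.6 over 7 genes, from 0.542 at Srsf7 to 86.2 at Hnrnpr. In SOX2 replicate 2 it was 79.5 over 4 genes, from 7.63 at Ncl to 94.7 at Hnrnpr.

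**Figure D5:**
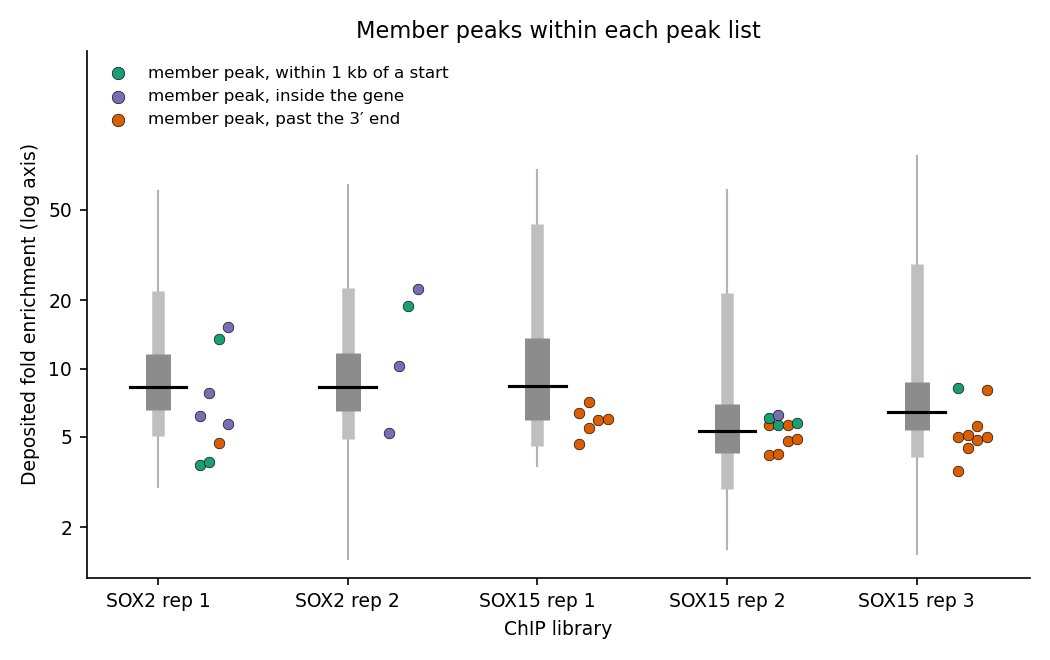
Deposited fold enrichment (log axis) of member peaks, as points coloured by position, beside the whole list of each library (thin line, lowest to highest; pale bar, 5th to 95th percentile; dark bar, quartiles; black line, median). In SOX15 replicate 1 the 6 member points, from 4.67 to 7.13, are all under the list median of 8.34.

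Where SOX15 and SOX2 intervals overlapped, the SOX2 peak came from replicate 1 alone. This was so at Hnrnpa3 and at Srsf7, with 2 overlapping pairs each. Of the 4 SOX2 sites called in both libraries, those at Hnrnpu and Ncl overlapped no SOX15 peak. The other sites, at Hnrnpr and Hnrnpd, had no SOX15 peak nearby that could overlap. The share of overlapping intervals over all genes is not given here, so these counts are not read as a result. No member summit lay within 1 kb of an snRNA, snoRNA or clustered histone gene. Leaving out summits at such genes therefore could not change the 6 SOX15 and 4 SOX2 member calls. It lowered only the shares of all genes, to 0.555% for SOX15 and 4.78% for SOX2.

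The other 24 members had no peak in the 5 libraries. They were Hnrnpa0, Hnrnpa1l2-ps2, Hnrnpc, Hnrnpf, Hnrnph2, Hnrnph3, Hnrnpk, Hnrnpl, Hnrnpll, Hnrnpm, Hnrnpul1, Hnrnpul2, Npm1, Srsf1, Srsf3, Srsf4, Srsf5, Srsf6, Srsf9, Srsf10, Srsf11, Srsf12, Tra2a and Tra2b. Thus 2 of the 13 SR-type genes (Srsf and Tra2) and 6 of the 21 hnRNP genes had a SOX15 peak in any library, beside 2.85% of all genes; the difference between the families was not tested. Hnrnpa1l2-ps2 is listed as protein-coding in the table although its symbol is that of a pseudogene. Reads from exons with processed copies elsewhere can map to more than 1 place, so an absent peak inside such genes is uncertain.

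The limit of 2 kb fell within a row of SOX15 summits. Just inside it were summits of Ncl at 1988 bp, Hnrnpa3 at 1915 bp and Hnrnpa1 at 1878 bp past the end. Just outside it were SOX15 summits of Hnrnpu at 2218 bp (replicate 2, fold 7.78), Hnrnpa1 at 2355 bp (replicate 1, fold 5.15), Hnrnpa2b1 at 3263 bp (replicate 1, fold 5.25) and Npm1 at 4163 bp from the gene (replicate 2, fold 4.18). The strand of Npm1 is not listed in the table used. A SOX2 summit of replicate 2 lay 4802 bp past the end of Hnrnpu (fold 9.14). With a limit of 5 kb Hnrnpa2b1 joins the members with SOX15 peaks in at least 2 libraries, which makes 7 (all genes 1.05%).

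Other genes of the splicing machinery were read from lists in the same way. Of 59 core spliceosome genes, which encode proteins of the snRNPs and their helpers, 0 had SOX15 peaks in at least 2 libraries (all genes 0.874%) and 2 in any (all genes 2.85%), both in replicate 3. Counts this small are near the shares over all genes. These were Snrpg, a ring protein of the snRNP core, 87 bp after its start (fold 5.92), and Prpf6, inside the gene (fold 5.97). Prpf6 also had SOX2 folds of 10.1 and 20.3, and Snrpn had SOX2 folds of 4.84 and 8.44. Of 68 other RNA-binding regulators of splicing, 0 had SOX15 peaks in at least 2 libraries (all genes 0.874%) and 6 in any (all genes 2.85%). Ddx5, an RNA helicase gene, was the one with a SOX15 summit past the 3′ end, 787 bp out in replicate 3 (fold 5.57). SOX2 was called in both libraries at 3 of the 68 (4.41%, near the 4.97% of all genes), Taf15 (folds 17.8 and 21.9), Rbfox2 (5.54 and 9.43) and Mbnl2 (8.01 and 7.44). These lists were drawn up with earlier results known, and their difference from the members was not tested.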

How the data were processed

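Peak lists of 5 ChIP-seq libraries were used. Bowtie2, MACS2, deepTools and mm10 are named, without versions, per the submitters' processing notes. Which control MACS2 was given is not stated in labels or files. There is 1 list for each ChIP sample, so replicates were not pooled. Per peak the authors deposited a fold enrichment (linear ratio), a −log10 p-value and a −log10 q-value, the summit offset and an integer score. The deposited score equals 10 times the −log10 q-value, rounded down. The lowest −log10 q-value was 2.10 and 2.20 in the SOX2 lists, and 2.76, 2.03 and 1.31 in the SOX15 lists.

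Summits were assigned to protein-coding genes of the RefSeq table (GRCm38.p6, 20 chromosomes); 1 summit can count for 2 genes. Strand and starts came from the RefSeq promoter table, which covers 17273 genes and 33 of the 36 members. Within 1 kb of a start took precedence over past the 3′ end, inside and upstream. The members and lists were chosen with earlier results of these data known, so no test was run; 2 against 3 libraries could not give an exact p below 0.1. Every member is named, and of the other lists those with reproducible SOX15 peaks; Snrpg, Prpf6, Snrpn, Ddx5, Taf15, Rbfox2, Mbnl2 and Rrn3 were named after their values were seen. Position classes were tested on simulated data. The scripts ran under Python 3.11.15 with pandas 2.3.3 and numpy 2.4.6; intervals came from scipy 1.17.1 and plots from matplotlib 3.10.9.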

Additional observations from a re-analysis of the deposited data

How the results depend on the processing

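The count of members with SOX15 peaks in at least 2 of 3 libraries was 6; it was 2 within 1 kb (all genes 0.749%), 1 with the summit inside the gene (0.407%), 2 in all 3 libraries (0.504%) and 2 to 4 without 1 SOX15 library (0.583% to 0.698%), against 0.874% of all genes as reported. Members with SOX2 in both libraries numbered 4 (all genes 4.97%), with 7 in any SOX2 library (9.44%). Without SOX2 replicate 1 there were 4 (8.79%), and without SOX2 replicate 2 there were 7 (5.61%). Members with both factors numbered 2 (all genes 0.365%), with 1 within 1 kb (0.314%) and 0 inside the gene (0.134%). Without 1 library there were 2 to 4 with both factors (0.296% to 0.601%). Each list was also cut to as many of its strongest peaks as the shortest list holds (217). This gave 0 for each of these 3 counts, beside 0.555% (SOX15), 0.338% (SOX2) and 0.00925% (both factors) of all genes. It gave 0 members for SOX2 replicates 1 and 2 (all genes 0.536% and 0.509%) and SOX15 replicate 2 (0.744%). For SOX15 replicate 3 it gave 2 (0.740%). SOX15 replicate 1 had 1 member within 1 kb (all genes 0.620%) and 0 inside (0.356%). With the summit inside, SOX15 replicates 2 and 3 had 4 (1.55%) and 1 (0.758%). Within 250 bp of a start lay 25% and 0% of the SOX2 summits in replicates 1 and 2, in place of 37.5% and 25% within 1 kb. By −log10 q-value the median percentile was 16.1 and 46.0 in SOX15 replicates 2 and 3. A −log10 q-value of at least 5, overlap of peak intervals and merged regions kept each of the 3 counts within 1.5 times. No paired analysis was possible because the result comes from no test, so there is no fit to take a replicate block. Depth is unknown, so weak sites cannot be told from absent ones.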

Other observations

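Among 24 genes of the nucleolus and ribosome biogenesis, 2 had SOX15 peaks in at least 2 libraries (8.33%, all genes 0.874%), neither with a SOX2 peak. In any SOX15 library there were 6 of the 24 (all genes 2.85%), beside 9 of the 36 members. The list was chosen with earlier results known, and the share was not tested. Nop56, the gene of a box C/D snoRNP core protein (chromosome 2, 130274367 to 130279313), had 3 summits past its 3′ end, with highest folds of 6.82 and 7.07 in SOX15 replicates 2 and 3. Ubtf, the gene of an RNA polymerase I transcription factor (chromosome 11, 102304560 to 102323649), had 4 summits within 1 kb of a start, with highest folds of 6.28 and 5.43 in the same replicates. SOX15 replicate 1 had no peak at any of the 24 (all genes 0.754%), which is near the share over all genes. SOX2 was called in both libraries at Rrn3, a partner of RNA polymerase I, with folds of 9.45 and 4.12.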
